A study of Mus musculus with 12 samples.

Results

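The pyruvate dehydrogenase complex (PDC) and the enzymes that set its activity were followed through 12 liver transcriptomes as 10 genes of the 25611 in the deposited count table: 4 kinases (Pdk1, Pdk2, Pdk3, Pdk4), 2 catalytic phosphatases and their regulatory partner (Pdp1, Pdp2, Pdpr), and 3 subunits of the complex itself (Pdha1, Pdhb, Dlat). The genes were taken by symbol. Each symbol matched 1 row and all 10 passed the filter on low counts. The RNA was poly(A) RNA of whole liver from male C57BL6J mice aged 8 to 10 weeks, 4 mice per group, all with normal saline under the skin. Sham mice had the abdominal incision without ligation or puncture, CLP mice had cecal ligation and puncture, a surgical model of polymicrobial sepsis, and CLP+DCA mice had the same surgery and then dichloroacetate (DCA) at 25 mg/kg into the peritoneum at 24 hr post-surgery. All livers were taken at 30 hr post-surgery, 6 hr after the injection. A vehicle injection for sham or CLP mice is not given in the sources used here, and no group of sham mice with DCA is among the samples, so a DCA effect could be read only in septic livers.

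PDC sits in the mitochondrial matrix and turns pyruvate into acetyl-CoA, the step that commits glycolytic carbon to oxidation or lipid synthesis. The kinases switch the complex off by phosphorylating the Pdha1 subunit, the phosphatases switch it back on, and DCA, a pyruvate analog, inhibits the kinases at the protein. In the fasted liver Pdk4 is known as the inducible kinase, whereas Pdk2 is the kinase found across most tissues. RNA levels say nothing of phosphorylation, and in whole liver fewer cells of a type and less RNA per cell cannot be told apart.

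Libraries held 24436513 to 44266819 counts. A list of 9 hepatocyte genes, all with reads in every library, marked the labelled tissue: it summed to 73285 to 94401 CPM (read counts scaled to a common library size by TMM) in sham, 57755 to 65073 CPM in CLP and 55818 to 70867 CPM in CLP+DCA. Hnf4a, 1 of the 9 genes, overlapped, at 671 to 765 CPM in sham and 687 to 803 CPM in CLP. Sham and CLP livers did not overlap in the summed list, which does not speak for each gene. They did not overlap either in 12 neutrophil genes, at 6.46 to 9.30 CPM in sham and 32.2 to 46.1 CPM in CLP (9 to 11 of the 12 with reads in sham, where Camp was at 0 in all 4 livers, and 11 to 12 in CLP, where Mpo was at 0 in 3 livers), nor in 10 stellate cell and cholangiocyte genes, at 104.0 to 156.7 CPM in sham and 180.5 to 223.2 CPM in CLP, nor in 8 lymphocyte genes, at 1.86 to 3.86 CPM in sham and 0.359 to 1.44 CPM in CLP. The lymphocyte sums rest on few reads, 8 to 60 per library in CLP (4 to 8 of the 8 genes with reads) and 56 to 122 in sham. The part of the cell types above in the CLP differences of the PDC genes was not tested. Among 10 marker lists, 2 libraries stood apart. CLP replicate 3 held 3271 CPM of 18 skeletal muscle genes, all 18 with reads, led by Acta1 at 671 CPM, Atp2a1 at 462 CPM and Ttn at 357 CPM, whereas the other 11 libraries held 1.49 to 6.22 CPM of the list. CLP+DCA replicate 3 held 61.4 CPM of 12 neutrophil genes, against 6.77 to 14.4 CPM in the other 3 CLP+DCA livers and the CLP range above, and 402 CPM of 10 stellate cell and cholangiocyte genes, against 127 to 162 CPM in the other 3. Its hepatocyte sum, 55818 CPM against 65466 to 70867 CPM in the other 3, was the lowest of the 12 livers. Its lymphocyte sum was 0.650 CPM (24 reads), against 1.75 to 2.55 CPM in the other 3. The adipocyte, pancreatic acinar, and Kupffer cell and macrophage sums of this liver were also the lowest of its group. CLP+DCA replicate 3 also lay with the CLP livers or beyond them for Pdk4, Pdp1, Pdk2 and Srebf1, as given below, and whether that mouse received DCA as labelled cannot be told from the files. The label was kept, so each CLP+DCA value and contrast that includes it carries this doubt. Results for the 10 members that rest on either library are given with and without it. For related genes only counts of genes called are given without it. Each library was singled out by its expression, so calls made without these libraries are not independent of that choice.

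In mm10 the other members lie at chr2:71873224-71903858 (Pdk1), chrX:93764616-93832095 (Pdk3), chr4:11958183-11966450 (Pdp1), chr8:104591468-104596849 (Pdp2), chr8:111094745-111135144 (Pdpr), chrX:160122219-160138430 (Pdha1) and chr9:50634633-50659780 (Dlat). Levels of different genes were compared as CPM per kilobase of exon. In sham liver Pdk2 was the most abundant of the 10 at 29.1 ± 0.827 CPM per kilobase (SD, n = 4). The complex followed, with Pdhb at 22.1 ± 0.777, Pdha1 at 19.9 ± 1.64 and Dlat at 8.29 ± 0.736 CPM per kilobase. Pdk1 stood at 7.23 ± 1.96, Pdp2 at 3.55 ± 0.360 and Pdpr at 1.99 ± 0.439 CPM per kilobase. The lowest were Pdk4 at 0.790 ± 0.0535, Pdp1 at 0.247 ± 0.0566 and Pdk3 at 0.174 ± 0.0608 CPM per kilobase. Sham liver thus carried mostly Pdk2 and Pdk1 among kinase transcripts and mostly Pdp2 among phosphatase transcripts. The sham ranges of Pdhb and Pdha1, of Dlat and Pdk1, and of Pdp1 and Pdk3 overlapped, and Pdk1 and Dlat changed places when the longest transcript replaced the union of exons (10.8 against 10 CPM per kilobase).

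Promoter sequence is shown for 3 members chosen after their values were seen: Pdk4, the kinase with the widest range between livers, and Pdk2 and Pdhb, the abundant kinase and the subunit that lay below every sham liver in all 4 CLP livers. Each line is the 250 bases before the RefSeq start (GRCm38.p6, the mm10 build), read on the gene's own strand. Pdk4 lies at chr6:5483351-5496278 with its window at chr6:5496279-5496528, Pdk2 at chr11:95026258-95041371 with its window at chr11:95041372-95041621, and Pdhb at chr14:8165991-8172992 with its window at chr14:8172993-8173242, all on the minus strand. Capitals mark matches, on either strand, to any of 7 motifs spelled below.
Pdk4: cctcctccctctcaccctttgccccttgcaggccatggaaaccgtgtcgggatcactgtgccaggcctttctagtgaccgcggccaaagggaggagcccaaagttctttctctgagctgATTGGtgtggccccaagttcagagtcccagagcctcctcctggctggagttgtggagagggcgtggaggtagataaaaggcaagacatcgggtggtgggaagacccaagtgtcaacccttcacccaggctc
Pdk2: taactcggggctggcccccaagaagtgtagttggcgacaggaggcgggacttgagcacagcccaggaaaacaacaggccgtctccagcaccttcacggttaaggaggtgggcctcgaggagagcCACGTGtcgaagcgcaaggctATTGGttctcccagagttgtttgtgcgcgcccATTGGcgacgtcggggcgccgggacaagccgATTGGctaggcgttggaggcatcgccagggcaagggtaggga
Pdhb: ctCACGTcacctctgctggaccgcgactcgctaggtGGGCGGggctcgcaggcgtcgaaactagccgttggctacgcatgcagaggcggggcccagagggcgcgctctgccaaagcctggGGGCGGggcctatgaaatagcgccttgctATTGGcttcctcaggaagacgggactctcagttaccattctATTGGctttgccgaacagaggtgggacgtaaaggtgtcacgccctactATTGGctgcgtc
Pdk2 and Pdhb each held 3 matches to CCAAT, all in the reverse reading ATTGG, a number reached in 2.79% of 32851 promoter windows of this length, and Pdk4 held 1. The threshold of 3 was taken from these genes. Among the other members with a window, Pdp2 held 2, Pdk3 held 1, and Pdk1, Pdpr, Pdha1 and Dlat held 0. At least 1 CCAAT was present in 33.8% of windows. The hypoxia core ACGTG, in 16.6% of windows, matched once in Pdhb and on both strands of 1 place in Pdk2. The GC box GGGCGG, in 32.7% of windows, matched 2 times in Pdhb. In Pdk4 no match was found to the forkhead motif GTAAACA (3.17% of windows), the nuclear receptor half-site AGGTCA (14.0%), the glucocorticoid receptor half-site AGAACA (16.1%), the TATA box TATAAA (12.4%), ACGTG or GGGCGG, which says only that these letters are not in this window.

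The first comparison asked how sepsis moved these genes, in livers whose summed hepatocyte, neutrophil, lymphocyte, and stellate cell and cholangiocyte markers differed as above. No member passed a false discovery rate (FDR) of 0.05 in CLP versus sham with edgeR's quasi-likelihood test over all 13190 genes tested, 367 of which (2.78%) passed. At an unadjusted p under 0.05 the count was 6 of 10 members, against 28.6% of all genes, and 5 of the 6 had adjusted p between 0.0666 and 0.0718. Other tools placed several of the same genes past the threshold. DESeq2 on all 12 libraries called 5 members (13% of genes called): Pdk4 and Pdp1 higher, and Pdk1, Pdhb and Dlat lower. DESeq2 on the 8 libraries compared called 7 (23.3%), with Pdk2 and Pdp2 added on the lower side. Limma-voom with sample quality weights called 6 (25.9%), with Pdk2 and Pdk3 added and Pdk4 dropped from the 5. EdgeR on the 8 libraries compared called 5 (18.3%), and edgeR on all 12 at an FDR of 0.1 called 5 (15.3%). In 4 of 10 members the CLP and sham ranges did not overlap, against 26.6% of all genes. The median log2 fold change of the 10 was -0.21, beside 0.02 over all genes tested, with 5 above 0 and 5 below.

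**Figure D1:**
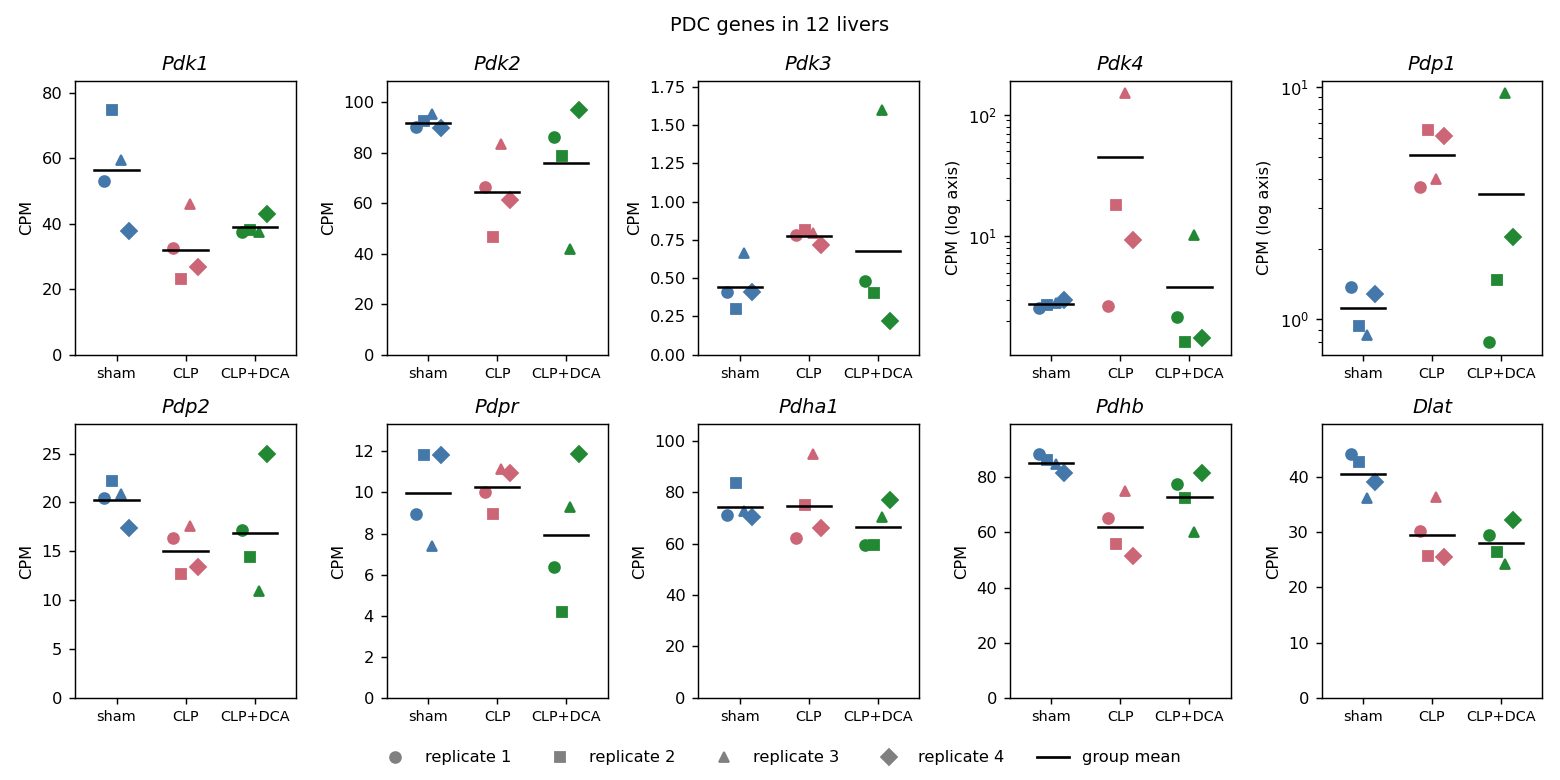
CPM of the 10 genes in each of 12 livers (points, 4 per group, shape by replicate number) with the group's arithmetic mean (line); Pdk4 and Pdp1 have log axes and the others start at 0. Pdp1 in CLP lies between 3.69 and 6.51 CPM, above all sham livers, and the triangle of CLP+DCA lies near the CLP livers or beyond them for Pdk2, Pdk3, Pdk4 and Pdp1.

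Pdk4 varied most among the kinases. The 4 sham livers held 2.57, 2.70, 2.82 and 3.01 CPM, and the 4 CLP livers held 2.67, 18.2, 150.2 and 9.38 CPM in the order of replicates 1 to 4. Thus 3 CLP livers lay above every sham liver and 1 lay within the sham range. The log2 fold change was 4.03 ± 1.14 (SE; edgeR's quasi-likelihood test, Benjamini-Hochberg adjusted p = 0.0695). The highest value came from CLP replicate 3, the library with skeletal muscle transcripts, a tissue in which Pdk4 is abundant. The part of muscle RNA in that value was not tested. CLP replicate 4, with 9.38 CPM of Pdk4, held 1.53 CPM of the muscle list, within the sham range of 1.49 to 2.19 CPM, and CLP replicate 2 held 6.22 CPM of it.

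Without CLP replicate 3 the Pdk4 log2 fold change in CLP versus sham was 1.85 ± 0.75 (SE; edgeR, adjusted p = 0.124). DESeq2 on the same 11 libraries gave 1.86 with an adjusted p of 0.0460, and limma-voom gave 1.59 with an adjusted p of 0.0160. Leaving out 1 further library at a time moved the edgeR value between 1.10 and 2.31, so the direction held and the call depended on the tool. Without both CLP replicate 3 and CLP+DCA replicate 3 the value was 1.84 ± 0.49 (edgeR, adjusted p = 0.0202).

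**Figure D2:**
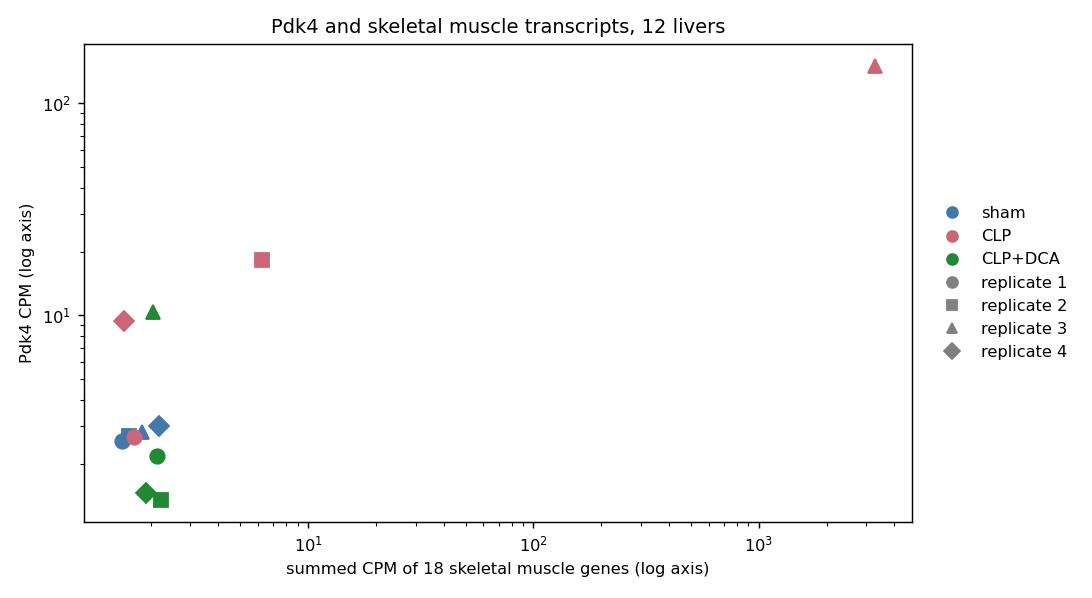
Pdk4 CPM against the summed CPM of 18 skeletal muscle genes in 12 livers, both on log axes, colour by group and shape by replicate number. CLP replicate 3 lies alone at 3271 CPM of muscle genes and 150.2 CPM of Pdk4, and among the 11 other livers Pdk4 spans 1.34 to 18.2 CPM over 1.49 to 6.22 CPM of muscle genes.

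Pdk2 and Pdk1, the main kinases of sham liver by transcript level, had lower means in CLP. Pdk2 stood at 90.1, 92.4, 95.5 and 90.0 CPM in sham and at 66.6, 46.6, 83.5 and 61.1 CPM in CLP, with every CLP liver below every sham liver. Its log2 fold change was -0.51 ± 0.23 (SE; edgeR, adjusted p = 0.172). Pdk1, a kinase known for its response to hypoxia, stood at 53.0, 74.6, 59.5 and 37.8 CPM in sham and at 32.5, 23.2, 45.9 and 26.7 CPM in CLP. Only CLP replicate 3 overlapped the sham range, and the log2 fold change was -0.80 ± 0.22 (SE; edgeR, adjusted p = 0.0666). Pdk3 was read from 7 to 59 reads per library, at 0.409, 0.297, 0.665 and 0.410 CPM in sham and 0.783, 0.814, 0.793 and 0.718 CPM in CLP. The groups did not overlap, and the log2 fold change of 0.81 ± 0.51 (SE; edgeR) had an adjusted p of 0.297.

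The phosphatase side changed its proportions. Pdp1, the calcium-responsive catalytic phosphatase, stood at 1.38, 0.941, 0.855 and 1.29 CPM in sham and at 3.69, 6.51, 3.99 and 6.10 CPM in CLP, without overlap. Its log2 fold change was 2.18 ± 0.63 (SE; edgeR, adjusted p = 0.0718), a 4.53-fold higher level. Pdp2, the other catalytic phosphatase, stood at 20.5, 22.2, 20.9 and 17.3 CPM in sham and at 16.3, 12.7, 17.6 and 13.4 CPM in CLP (log2 fold change -0.42 ± 0.21, SE; edgeR, adjusted p = 0.208). CLP replicate 3 was the single CLP liver inside the sham range of Pdp2. Pdpr, the regulatory subunit of the phosphatase, lay at 7.37 to 11.8 CPM in sham and 8.95 to 11.2 CPM in CLP, and its log2 fold change of 0.04 ± 0.27 (SE; edgeR, adjusted p = 0.930) reversed sign under several settings.

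Subunits of the complex did not move alike. Pdhb, the beta subunit of pyruvate dehydrogenase, stood at 88.7, 86.2, 85.0 and 81.4 CPM in sham and at 65.4, 55.7, 75.1 and 51.5 CPM in CLP, without overlap (log2 fold change -0.46 ± 0.13, SE; edgeR, adjusted p = 0.0670). Dlat, the acetyltransferase core, stood at 44.2, 42.6, 36.2 and 39.1 CPM in sham and at 30.2, 25.7, 36.3 and 25.5 CPM in CLP (log2 fold change -0.46 ± 0.13, SE; edgeR, adjusted p = 0.0694). CLP replicate 3 alone reached the lowest sham liver for Dlat. Pdha1, the alpha subunit that the kinases phosphorylate, stood at 71.0, 83.5, 72.5 and 70.5 CPM in sham and at 62.1, 74.9, 95.0 and 65.9 CPM in CLP, with a log2 fold change of 0.00 ± 0.14 (SE; edgeR, adjusted p = 0.984). CLP replicate 3 was the highest liver for Pdha1, and without it the log2 fold change was -0.14 ± 0.12 (edgeR, adjusted p = 0.447).

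The calls in CLP versus sham depended on the libraries that stood apart. Without CLP replicate 3, edgeR called 3 members (Pdk1, Pdhb and Dlat, all lower), with 7.46% of all genes called. Without CLP+DCA replicate 3, a library outside this contrast that enters through the shared estimate of the spread, edgeR called 6 members (Pdk1, Pdk2, Pdk4, Pdp1, Pdhb and Dlat), with 23.8% of all genes called. Without both libraries it called 7 members (31.1% of genes), the 6 and Pdp2: Pdk4 and Pdp1 rose, and Pdk1, Pdk2, Pdp2, Pdhb and Dlat fell. In that fit the log2 fold changes were 2.28 ± 0.32 for Pdp1 (adjusted p = 0.00106), -1.03 ± 0.20 for Pdk1 (adjusted p = 0.00458) and -0.56 ± 0.09 for Pdhb (adjusted p = 0.00205). CLP+DCA replicate 3 was set apart partly by Pdk4, Pdp1 and Pdk2. The spread of these genes without it, and so their calls, are not independent of that choice.

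**Figure D3:**
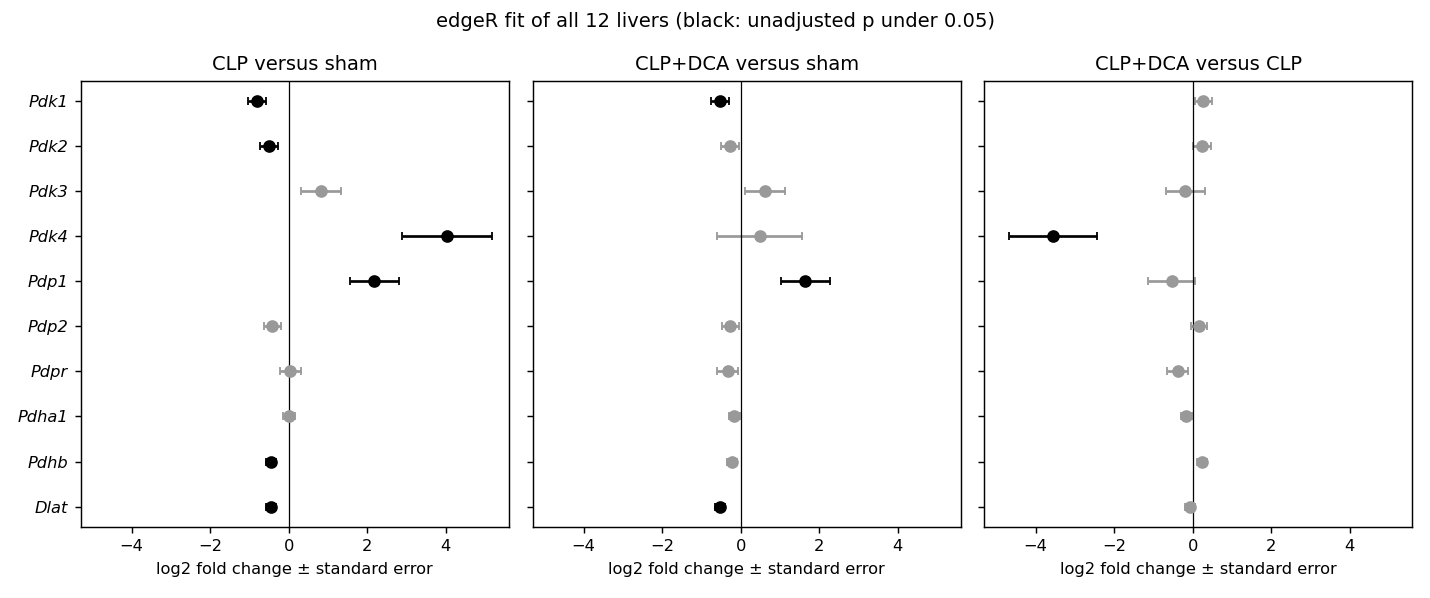
Log2 fold changes with their standard errors (bars) of the 10 genes in the 3 contrasts, edgeR fit of all 12 livers; black points have an unadjusted p under 0.05, grey ones do not. Pdk4 has the widest error, 1.14 in CLP versus sham, and Pdhb and Dlat the narrowest of those in black.

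The make-up of kinase transcripts was described per kilobase in each liver. Pdk4 made up 1.94% to 2.5% of the summed kinase level in sham, and 2.89%, 22.4%, 56.8% and 10.4% in CLP replicates 1 to 4. Pdk2 made up 73.6% to 82.9% in sham and 80.1%, 63.4%, 35.0% and 75.2% in CLP. The kinase sum itself was 34.3 to 39.7 CPM per kilobase in sham and 23.2 to 26.3 CPM per kilobase in the 3 CLP livers other than replicate 3, which held 75.4. Pdp1 made up 4.92% to 8.56% of the phosphatase sum in sham and 22.2%, 39.3%, 22.2% and 36.5% in CLP, while that sum stayed between 3.67 and 3.98 CPM per kilobase in CLP against 3.33 to 4.10 in sham. A larger part of the phosphatase transcripts was therefore Pdp1 in all 4 CLP livers, with a sum that overlapped the sham range.

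**Figure D4:**
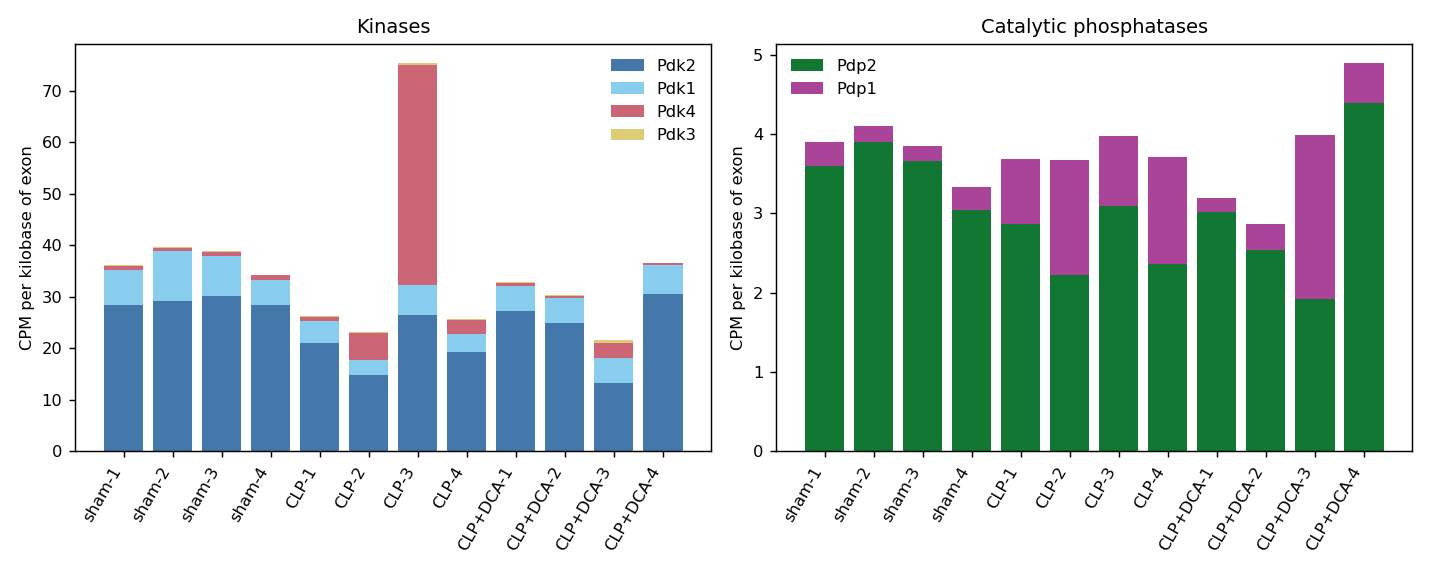
Stacked levels of kinase (left) and catalytic phosphatase (right) transcripts in each of 12 livers, in CPM per kilobase of exon, both axes from 0. CLP replicate 3 has the tallest kinase bar, 75.4, of which Pdk4 is 56.8%, and Pdp1 is 52.0% of the phosphatase bar in CLP+DCA replicate 3.

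The second comparison set septic livers with DCA against sham. No member passed in CLP+DCA versus sham with edgeR, where 5 of 13190 genes did (0.0379%). At an unadjusted p under 0.05 the members were Pdk1, Pdp1 and Dlat, 3 of 10 against 13% of genes. Dlat stood at 29.4, 26.4, 24.1 and 32.2 CPM in CLP+DCA, each below the lowest sham liver. It was the 1 member of 10 without overlap, against 9.76% of genes, with a log2 fold change of -0.53 ± 0.13 (SE; edgeR, adjusted p = 0.225). Dlat was also the single member called by DESeq2 on all 12 libraries (adjusted p = 0.0220, 1.83% of genes called), by DESeq2 on the 8 compared (1.20%) and by limma-voom (adjusted p = 0.0157, 3.59%). Its mean was lower than sham in septic livers with and without DCA, and both contrasts share the sham livers.

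Pdk1 with DCA stood at 37.4, 38.1, 37.5 and 43.0 CPM, with replicates 1 and 3 just below the lowest sham liver, 37.8 CPM, and the others inside the sham range (log2 fold change -0.53 ± 0.22, SE; edgeR, adjusted p = 0.354). The other members had wider spread, much of it from 1 liver. Pdp1 stood at 0.798, 1.48, 9.34 and 2.26 CPM, and its log2 fold change against sham was 1.65 (edgeR, adjusted p = 0.320) with all livers and 0.44 (adjusted p = 0.755) without CLP+DCA replicate 3. Pdk4 stood at 2.17, 1.34, 10.3 and 1.46 CPM, so that 3 of 4 livers lay below every sham liver and replicate 3 above every one. The Pdk4 log2 fold change against sham was 0.48 ± 1.08 (edgeR, adjusted p = 0.847) and turned to -0.74 (adjusted p = 0.911) without that liver.

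The third comparison, CLP+DCA versus CLP, addressed what DCA changed in septic liver. With edgeR no member passed and 1 of 13190 genes did (0.00758%). Pdk4 was the single member with an unadjusted p under 0.05 (edgeR across all genes), against 10% of genes by edgeR, and none of the 10 was free of overlap between the groups, against 4.38%. DESeq2 called no member on all 12 libraries (0.815% of genes called) or on the 8 compared (0.604%), and limma-voom, which weighs down discordant libraries, called 4 (14.8%): Pdp1 and Pdpr lower with DCA, and Pdk2 and Pdhb higher.

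Pdk4 had a log2 fold change of -3.55 ± 1.11 (SE; edgeR, adjusted p = 0.372) in CLP+DCA versus CLP. Without CLP replicate 3 it was -1.37 ± 0.74 (edgeR, adjusted p = 0.478), and with 1 further library left out at a time it lay between -2.58 and -0.63. Limma-voom on those 11 libraries gave -2.08 with an adjusted p of 0.0116. The lowest 3 livers of all 12 for Pdk4 were CLP+DCA replicates 1, 2 and 4, and CLP+DCA replicate 3, at 10.3 CPM, lay between CLP replicates 4 and 2. Leaving out CLP+DCA replicate 3 in place of CLP replicate 3 gave -4.78 ± 1.32 (edgeR, adjusted p = 0.0633).

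Pdk2 stood at 86.2, 78.6, 41.8 and 96.9 CPM in CLP+DCA, so that replicate 3 was the lowest of all 12 livers and replicate 4 the highest. Its log2 fold change against CLP was 0.23 ± 0.23 (SE; edgeR, adjusted p = 0.763). Pdhb stood at 77.6, 72.5, 60.3 and 81.7 CPM (log2 fold change 0.23 ± 0.13, SE; edgeR, adjusted p = 0.565), with replicate 3 the lowest of its group. Pdk3 stood at 0.479, 0.403, 1.60 and 0.223 CPM and Pdp2 at 17.2, 14.4, 10.9 and 25 CPM, with replicate 3 the highest liver of all for Pdk3 and the lowest for Pdp2. Pdpr stood at 6.35, 4.17, 9.29 and 11.9 CPM and Pdha1 at 59.4, 59.3, 70.5 and 77.1 CPM, 2 genes for which replicate 3 lay inside the range of its group.

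Without CLP replicate 3, edgeR called no member in CLP+DCA versus CLP (0.0603% of genes). Without CLP+DCA replicate 3 it called Pdp1 alone (log2 fold change -1.73 ± 0.34, adjusted p = 0.0237), with 4.64% of genes called. Without both it called 4 members, with 16.9% of genes called: Pdk4 (-2.58 ± 0.57, adjusted p = 0.0183) and Pdp1 (-1.83 ± 0.35, adjusted p = 0.0101) were lower with DCA, and Pdk2 (0.58 ± 0.13, adjusted p = 0.0153) and Pdhb (0.42 ± 0.10, adjusted p = 0.0194) higher. Dlat and Pdha1 were called under none of these 3 fits. CLP+DCA replicate 3 was set apart partly by its own Pdk4, Pdp1 and Pdk2 levels. The adjusted p of these genes without it are therefore not independent of that choice and give no separate support.

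**Figure D5:**
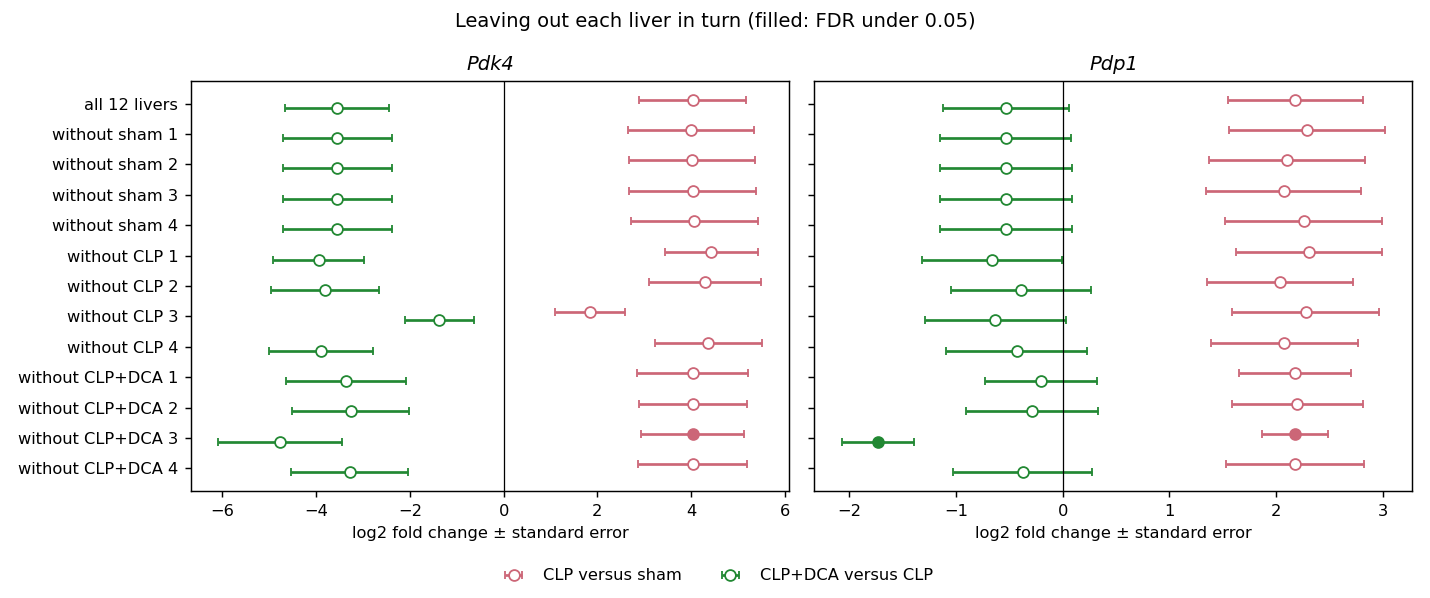
Log2 fold changes with standard errors of Pdk4 (left) and Pdp1 (right) for CLP against sham (red) and for CLP+DCA against CLP (green), with all 12 livers and with each left out in turn (edgeR); filled points have an FDR under 0.05. Leaving out CLP replicate 3 moves Pdk4 against sham from 4.03 to 1.85, and leaving out CLP+DCA replicate 3 moves Pdp1 in CLP+DCA versus CLP from -0.53 to -1.73.

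The Pdk4 and Pdp1 shares per kilobase in CLP+DCA separated replicate 3 from the other 3 livers. Pdk4 made up 1.88%, 1.26%, 13.6% and 1.14% of the kinase sum and Pdp1 5.54%, 11.4%, 52.0% and 10.2% of the phosphatase sum. The ratio of kinase to phosphatase sums was 9.28 to 10.3 in sham, 7.14, 6.32, 18.9 and 6.93 in CLP, and 10.3, 10.6, 5.42 and 7.49 in CLP+DCA. The ratio for CLP replicate 3 stood apart through Pdk4, and that for CLP+DCA replicate 3 was the lowest of the 12. CLP+DCA replicate 4, at 7.49, also lay below the sham range of this ratio.

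Related genes were read from 8 lists of 74 genes, 72 of them tested. In CLP versus sham 7 of 72 passed with edgeR, 2 higher and 5 lower, against 2.78% of all genes. Of the remaining parts and cofactor enzymes of PDC, none of 10 passed and 9 had negative log2 fold changes, with 4 at an unadjusted p under 0.05 against 28.6% of genes; DESeq2 called 2 of them (13% of all genes) and limma-voom 4 (25.9%). The lowest p among them were those of Lipt1, a lipoyltransferase (log2 fold change -0.52, edgeR, adjusted p = 0.0761), and Dld, the dihydrolipoamide dehydrogenase of the complex (-0.28, adjusted p = 0.0882). Among 12 genes of pyruvate supply and its other fates, Pklr, the liver pyruvate kinase, fell (-0.67 ± 0.16, SE; edgeR, adjusted p = 0.0479), with 37.6 to 51.7 CPM in CLP and 53.4 to 89.6 CPM in sham. Slc16a1, a monocarboxylate carrier, had a log2 fold change of 1.49 (adjusted p = 0.104).

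Of 5 genes of acetyl-CoA handling, 1 rose and 1 fell in CLP versus sham with edgeR, against 2.78% of all genes called. DESeq2 called 3 of them (13% of all genes) and limma-voom 2 (25.9%). Crat, which exchanges acetyl groups between CoA and carnitine, stood at 28.6, 58.9, 51.6 and 37.8 CPM in sham and at 92.0, 111.8, 111.9 and 111.5 CPM in CLP, and rose (log2 fold change 1.27 ± 0.25, SE; edgeR, adjusted p = 0.0355). In CLP+DCA it stood at 38.8, 43.7, 73.1 and 35.9 CPM, below all CLP livers (log2 fold change -1.16 ± 0.25, edgeR, adjusted p = 0.178). Slc25a1, the mitochondrial citrate carrier, fell in CLP (-0.46 ± 0.10, SE; edgeR, adjusted p = 0.0414), from 220.7 to 261.7 CPM in sham to 162.3 to 182.3 CPM. Its level in CLP+DCA was 152.1 to 175.2 CPM, also below every sham liver, with an adjusted p of 0.153 by edgeR.

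Regulators and responsive genes gave 4 further calls in CLP versus sham with edgeR, which called 2.78% of all genes. Of 14 regulators of Pdk genes edgeR called 1, DESeq2 2 (13% of all genes) and limma-voom 3 (25.9%). The last 2 shares lay near those of all genes. Of 8 glucocorticoid-responsive genes edgeR called 1 higher and 2 lower, and DESeq2 and limma-voom called 3 each. Srebf1, a lipogenic transcription factor, fell (log2 fold change -1.94 ± 0.45, SE; edgeR, adjusted p = 0.0475), from 305 to 356 CPM in sham to 45.2 to 140.2 CPM in CLP. Its CLP+DCA values were 266.0, 189.3, 51.3 and 255.6 CPM, with replicate 3 again among the CLP livers. Ppara, the fatty acid receptor that is a known activator of Pdk4, had a log2 fold change of -0.83 (edgeR, adjusted p = 0.0869). Of 13 PPAR-alpha and fasting genes none passed with edgeR and 11 had positive log2 fold changes (2 of 13 at an unadjusted p under 0.05, against 28.6% of all genes; DESeq2 called 1, against 13%, and limma-voom 2, against 25.9%, so no share was above the background), with the smallest p for Angptl4, a lipase inhibitor (1.25, adjusted p = 0.0516), and Creb3l3 (0.40, adjusted p = 0.125). Fkbp5, a glucocorticoid-induced co-chaperone, rose (2.04 ± 0.22, SE; edgeR, adjusted p = 0.00698). Dusp1, a phosphatase of MAP kinases (-1.19 ± 0.25, adjusted p = 0.0390), and G6pc, the last enzyme of glucose release (-1.42 ± 0.30, adjusted p = 0.0404), fell.

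With DCA, none of 72 related genes passed against CLP with edgeR, and 14 had an unadjusted p under 0.05, against 10% of genes. DESeq2 called 5 against CLP, with 0.815% of genes called, and limma-voom 19, with 14.8%. Against sham 1 of 72 passed with edgeR, with 0.0379% of genes called, and 14 had an unadjusted p under 0.05, against 13% of genes. The gene that passed was Per1, a clock gene that glucocorticoids induce, which rose (log2 fold change 1.09 ± 0.15, SE; edgeR, adjusted p = 0.0357). It stood at 51.0, 57.6, 56.0 and 43.1 CPM in CLP+DCA, above the 20.2 to 32.7 CPM of sham and the 23.9 to 29.8 CPM of CLP. Against CLP, 7 of the 8 glucocorticoid-responsive genes had an unadjusted p under 0.05, 6 with positive log2 fold changes (Dusp1, G6pc, Tsc22d3, Per1, Tat and Pck1) and 1, Fkbp5, with a negative one. DESeq2 called 4 of the 8 (0.815% of genes called) and limma-voom 7 (14.8%). The log2 fold changes were 1.82 for Dusp1 (edgeR, adjusted p = 0.0718), 1.39 for G6pc (0.178), 0.91 for Per1 (0.109) and -0.75 for Fkbp5 (0.326). In CLP+DCA replicate 3, G6pc (64.0 CPM) and Pck1 (2140 CPM) lay inside the CLP ranges, 44.4 to 66.4 and 1632 to 2710 CPM. Its Tsc22d3, 33.0 CPM, lay below the CLP range of 49.2 to 71.6 CPM. For each of these genes the other CLP+DCA livers lay above the CLP range. Replicate 3 lay above every CLP liver for Dusp1, Per1 and Tat, and below every one for Fkbp5. DCA handling was read from 3 genes tested, and none passed in CLP versus sham with edgeR or DESeq2 (0 at an unadjusted p under 0.05), while limma-voom called 1, with 25.9% of genes called. Gstz1, the enzyme that breaks DCA down, stood at 569.9 to 615.4 CPM in sham, 378.3 to 550.8 CPM in CLP, and 567.3, 599.3, 218.7 and 587.4 CPM in CLP+DCA (CLP versus sham, log2 fold change -0.34, edgeR, adjusted p = 0.388). The lowest Gstz1 level of the 12 livers was thus in CLP+DCA replicate 3. Fah and Hpd, enzymes of tyrosine breakdown, had log2 fold changes of -0.56 (adjusted p = 0.291) and -1.12 (adjusted p = 0.298) in CLP versus sham by edgeR. Bckdk, the kinase of the sister complex for branched-chain ketoacids, had 0.66 (adjusted p = 0.0722), and its partner Dbt -0.53 (adjusted p = 0.174).

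Likeness to each kinase was described by Pearson's r of log2 CPM over the 12 libraries among 13190 genes. Sntg2 (0.990), Rdh10 (0.988) and Adi1 (0.987) were most like Pdk2. The profile of Pdk1 was most like Ces2e (0.962), Pparg (0.939) and Ptp4a2 (0.928), and that of Pdk3 most like Rspo3 (0.964), Fam49b (0.949) and Gadd45b (0.944). For Pdk4 the closest were Nipsnap2 (0.984), Cd24a (0.951) and Rilpl1 (0.934), and without CLP replicate 3 they were Fmo4 (0.973), Ccdc122 (0.972) and Anxa5 (0.968), so none of the 3 names was kept. The 12 libraries share the differences between groups and the livers that stand apart, and these values are descriptions of them.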

How the data were processed

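RNA of 12 whole livers was sequenced by the authors (TruSeq v2, paired ends) and, per the submitters' processing notes, aligned to mm10 with STAR 2.5 and counted with featureCounts (Subread 1.5.0-p1). The deposited values are raw read counts per gene. Strand handling is not given in the sources used here, so reads of Pdha1 and Pdpr cannot be told from those of the antisense genes Map3k15 (at most 55 reads per library) and 9430091E24Rik (at most 128). Genes with low counts were filtered (filterByExpr, minimum count 10), libraries scaled by TMM, and 3 contrasts tested with edgeR 4.0.16 (robust quasi-likelihood F test on all 12 libraries; R 4.3.3) with Benjamini-Hochberg adjustment over 13190 genes at FDR 0.05; SE is the log2 fold change over the root of F. DESeq2 1.42.0, limma 3.58.1 (voom with quality weights), other scalings, no filter, FDR 0.1, a replicate block and left-out libraries were alternatives; leaving out both CLP-3 and CLP+DCA-3, and the genes most like Pdk4 without CLP-3, were added after the data were seen. Levels per kilobase used the GENCODE M21 union of exons. Log2 CPM used a prior count of 2. The code was tested on simulated data.

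Named were all 10 members, related genes past the FDR in any contrast, the 2 of each list with the smallest p in CLP versus sham, the 3 genes most like each kinase, and the 3 most abundant genes of a marker list that stood apart. The members and lists were chosen with earlier results of these data known. Promoters came from RefSeq (9 of 10 members matched; none was matched for Pdp1). Replicates are separate mice. p-values across the 3 contrasts share libraries. Counts limit Pdk3 most.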

Additional observations from a re-analysis of the deposited data

Results flagged for a closer look

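Each gene's CPM was examined in each of the 3 groups for a liver far from the other 3 by Dixon's test. Of 30 groups, 5 held such a liver, and chance alone gives some. CLP replicate 3 had 150.2 CPM of Pdk4, with the next CLP liver at 18.2 CPM. CLP+DCA replicate 3 had 10.3 CPM of Pdk4, with the next at 2.17 CPM, and 9.34 CPM of Pdp1, with the next at 2.26 CPM. CLP+DCA replicate 4 had 43.0 CPM of Pdk1, with the next at 38.1 CPM in a group of narrow range. Sham replicate 2 had 83.5 CPM of Pdha1, with the next at 72.5 CPM.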

How the results depend on the processing

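Members called in CLP versus sham were 0 with edgeR on all 12 libraries, 5 with DESeq2 on 12 (13% of all genes called), 7 with DESeq2 on the 8 compared (23.3%), 6 with limma-voom (25.9%), 5 with edgeR on the 8 (18.3%), 5 at FDR 0.1 (15.3%), 7 without both CLP-3 and CLP+DCA-3 (31.1%), and 0 to 6 with 1 library left out. In CLP+DCA versus sham they were 1 with DESeq2 (on 12 or 8) and with limma-voom, and 0 with any 1 library left out. In CLP+DCA versus CLP they were 4 with limma-voom, 4 without both libraries, and 0 to 1 with 1 left out. Related genes called in CLP versus sham, 7 of 72 by edgeR (2.78% of all genes), were 2 with no filter (0.647%) and, at the shares just given, 15 and 28 with DESeq2 on 12 and 8, 23 with limma-voom, 22 with edgeR on the 8, 13 at FDR 0.1, 27 without both, and 1 to 25 with 1 left out, the highest without CLP+DCA replicate 3 (23.8%). Against sham with DCA, 1 by edgeR (0.0379%) became 0 on library size alone (0.0227%), 4 and 5 with DESeq2 on 12 and 8 (1.83% and 1.20%), 7 with limma-voom (3.59%), 0 with edgeR on the 8, 0 without both, and 0 to 2 with 1 left out. Against CLP, 0 by edgeR (0.00758%) became 5 with DESeq2 on 12 and on 8 (0.815% and 0.604%), 19 with limma-voom (14.8%), 1 at FDR 0.1 (0.0455%), 18 without both (16.9%), and 0 to 11 with 1 left out, again highest without CLP+DCA replicate 3 (4.64%). The cause was not tested.

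Replicate numbers showed no sign of pairing the mice. Of 12 same-numbered pairs, 1 had a correlation of deviations over 0.1 (range -0.46 to 0.55). Of 12 libraries, 3 correlated best with their own number. Unlike-numbered CLP and CLP+DCA libraries reached -0.61 and 0.70, so a weak pairing could not be seen in this way. With the replicate block, related genes called were 3 in CLP versus sham, 0 between CLP+DCA and sham, and 1 between CLP+DCA and CLP, and members called were 0 in each.

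Pdk4 without CLP replicate 3 passed in CLP versus sham with DESeq2 (1.86), limma-voom (1.59) and without CLP+DCA replicate 3 (1.84; range with 1 further library out 1.10 to 2.31), and in CLP+DCA versus CLP with limma-voom (-2.08) and without CLP+DCA replicate 3 (-2.58; range -2.58 to -0.63). CLP+DCA replicate 3 was set apart partly by its Pdk4 level, so the calls without it are not independent of that choice.

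Signs turned, with no call, for small or noisy log2 fold changes. In CLP versus sham, Pdpr was -0.12 on library size alone, -0.0035 without both libraries and -0.082 to 0.13 with 1 left out. Pdha1 was -0.16 on library size alone, -0.012 with no filter, -9.41e-05 and -0.0016 with DESeq2 on 12 and 8, -0.096 with limma-voom, -0.011 with the replicate block, -0.14 without both and -0.14 to 0.082 with 1 left out. In CLP+DCA versus sham, Pdk3 was -0.26 without both and -0.26 to 0.91 with 1 left out. Pdk4 was -0.48 with limma-voom, -0.31 with the replicate block, -0.74 without both and -0.74 to 0.77 with 1 left out, and Pdp1 was -0.0048 with limma-voom. In CLP+DCA versus CLP, Pdk3 was -1.08 to 0.10 and Pdp2 -0.088 to 0.32 with 1 left out, and Dlat was 0.027 on library size alone, 0.11 without both and -0.15 to 0.047 with 1 left out. Scaling by library size alone moved the median log2 fold change of all genes in CLP versus sham to -0.15, from 0.02. Depth limits Pdk3 most, with 7 to 59 reads per library.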
